A study of Mus musculus with 34 samples.

Results

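The cytosolic ribosome of mammals is built from ribosomal RNA and a set of proteins of the large (Rpl) and small (Rps) subunit, each encoded by its own gene. Their mRNAs begin with a tract of pyrimidines, the 5′ terminal oligopyrimidine (TOP) motif, through which the kinase complex mTORC1 and the RNA-binding protein LARP1 control how well they are translated. Lymphocytes enlarge and make more ribosomes when they are activated, so the RNA level of these genes is one layer of a response that is also controlled at translation. The genes were chosen by symbol: every row of the RNA table that starts with Rpl or Rps and a number, or is Rplp0, Rplp1, Rplp2 or Rpsa, without S6 kinases and rows marked as pseudogenes. This gave 86 genes of 23812 rows. They comprised 46 core genes of the large subunit, 31 core genes of the small subunit, and 9 paralogues or genes whose symbol matches but whose product is no core ribosomal protein.

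RNA was measured in 2 samples of activated and 2 samples of resting B cells of the CD43-negative spleen fraction. Per the series design the mice were 6 to 8 weeks old, of the strain written there as C56BL/6J. Activated cells had spent 3 days in culture with 10 µg per ml of LPS, the lipopolysaccharide of bacterial outer membranes, which B cells sense with the receptor TLR4. The resting cells were the control. Their growth and treatment labels repeat the LPS culture, so they were grouped by title and source name. The FAIRE-seq, ChIP-seq, STARR-seq and Hi-C lists used here are of activated cells, and ChIP-seq samples of resting cells were not analysed here. Nothing in the labels ties a replicate to an animal or culture of its own, so the spread behind each p-value may be technical only.

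No header or label names the unit of the RNA values, which were taken as FPKM, a level scaled to transcript length and to the size of the library. They summed to 285068 and 285129 in activated and to 244602 and 287884 in resting samples. All 7 B cell markers were present in every sample, from 34.9 FPKM (Pax5 in activated replicate 2) to 1244 FPKM (Cd79b in resting replicate 2). Their summed level was 2117 and 1531 FPKM in activated samples, against 3481 and 3845 FPKM in resting samples, and in limma 6 of the 7 were called lower in activated cells, with a median log2 difference of -0.99. Summed markers of other cells were higher in the resting samples. The summed level of 10 erythroid rows was 14.7 and 6.16 FPKM in activated samples, against 2383 and 18076 FPKM in resting samples. The sum of 10 myeloid genes was 2.88 and 9.50 FPKM in activated, against 387.6 and 761.1 FPKM in resting samples, and the sum of 9 T and NK cell genes was 1.03 and 0.502 FPKM in activated, against 16.4 and 29.7 FPKM in resting samples. The sum of 5 dendritic and endothelial markers was 51.4 and 33.6 FPKM in activated, against 85.0 and 72.3 FPKM in resting samples. Within these lists Flt3 was called higher in activated cells, with 25.9 and 15.9 FPKM in activated and 5.25 and 4.36 FPKM in resting samples, and Itgam had a log2 difference of 0.01. In the activated samples C1qa, C1qb, S100a9, Klrd1, Thy1, Cd3d, Cd3e and Cd3g were all listed at 0. The part of these other cells in the ribosomal protein values was not tested. In bulk RNA, fewer cells of a type and less RNA per cell cannot be told apart.

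The annotated start sites were searched for the TOP motif. Of the 86 genes, 65 had a start in RefSeq's promoter table (GRCm38.p6), with 77 starts in all. At 13 of the 65 genes (20%) a start was a C followed by at least 4 pyrimidines, the form of a TOP motif, against 2.93% of the tested genes and 3.01% of all genes in that table. An annotated start can lie some bases from the start the cell uses, so a gene without the tract here is only a gene without it at this annotated base. The windows below give 25 bases before the start and 15 from the start on, with the tract in capitals, for genes that passed the test of RNA level, Rpl28 (chr7:4792940-4792979, plus strand), Rpl14 (chr9:120571492-120571531, plus strand) and Rps6 (chr4:86857353-86857392, minus strand). They are followed by Rplp2 of the stalk (chr7:141447626-141447665, plus strand) and by Rps27 (chr3:90213634-90213673, minus strand) and Rps21 (chr2:180257354-180257393, plus strand), which did not pass. Rplp0 (chr5:115559442-115559481, plus strand) has no such tract at its annotated start and stands last.
Rpl28: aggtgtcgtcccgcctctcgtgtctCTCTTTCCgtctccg
Rpl14: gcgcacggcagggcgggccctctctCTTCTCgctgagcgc
Rps6: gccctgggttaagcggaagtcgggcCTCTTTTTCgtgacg
Rplp2: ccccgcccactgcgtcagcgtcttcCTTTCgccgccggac
Rps27: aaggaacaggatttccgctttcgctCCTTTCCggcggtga
Rps21: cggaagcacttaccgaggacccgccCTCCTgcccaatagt
Rplp0: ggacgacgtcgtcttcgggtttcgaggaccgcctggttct

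Most ribosomal protein genes had a small positive difference in activated cells, and most of these differences did not pass the test. Of the 86 genes, 83 had at least 1 FPKM in at least 2 samples and were tested. In limma on log2(FPKM + 1), 24 of these 83 were higher in activated cells and 0 were lower at a Benjamini-Hochberg adjusted p under 0.05, while 35 had an unadjusted p under 0.05. Over all 10863 tested genes, 28.2% were called higher and 26.2% lower, so the share of ribosomal protein genes called higher was near that of all genes. The estimate was positive for 74 of the 83, and the median log2 difference was 0.53, against 0.03 over all tested genes. Both activated values lay above both resting values in 53 of the 83 and below them in 1, where 41.5% and 39.1% of all tested genes did so. The tested genes that were not called had folds of 0.80 to 1.87 on the scale of FPKM + 1. The count of 24 depended on which samples were used, as did the median log2 difference of these genes. That median was 0.33 without activated replicate 1 and 0.34 without resting replicate 1, against 0.01 and 0.05 over all tested genes. It was 0.69 without activated replicate 2 and 0.68 without resting replicate 2, against -0.01 and 0.13.

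**Figure D1:**
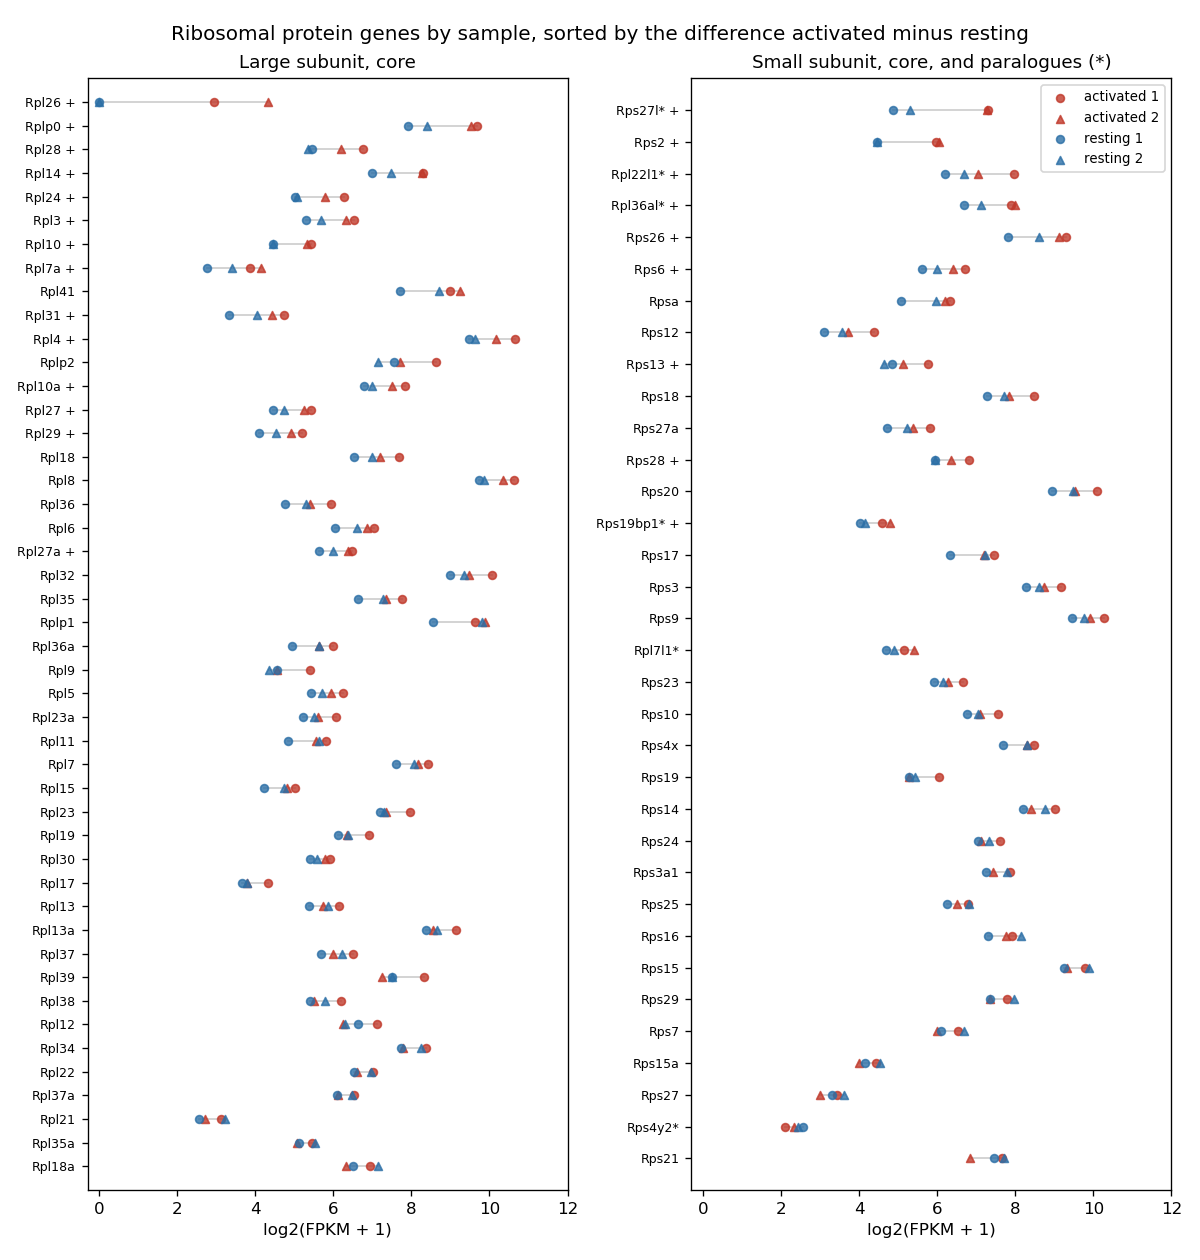
Level of the tested genes reported here in every sample as log2(FPKM + 1), with core genes of the large subunit on the left and core genes of the small subunit and paralogues (asterisk) on the right, sorted by the difference. Red points are activated and blue points resting samples, circles replicate 1 and triangles replicate 2, and a plus sign marks genes called higher in activated cells. Over the 83 tested genes activated replicate 1 was the highest sample for 63 and resting replicate 1 the lowest for 67.

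**Figure D2:**
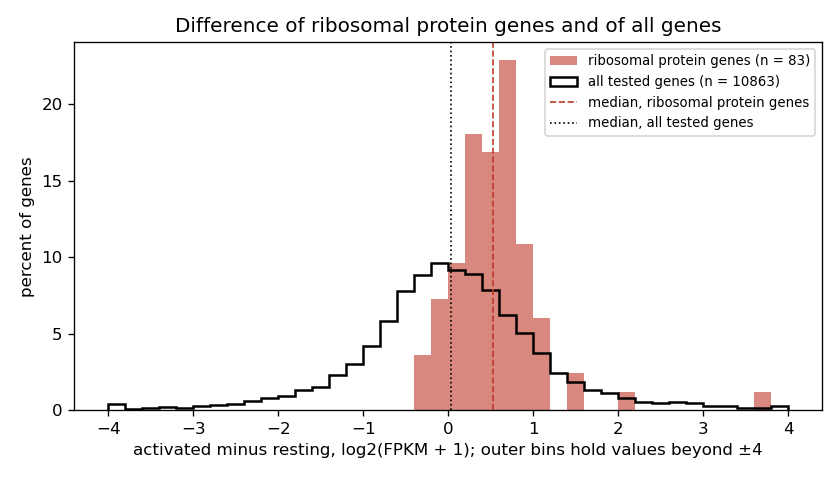
Distribution of the difference activated minus resting on the log2(FPKM + 1) scale, as percent of 83 ribosomal protein genes (red) and of all 10863 tested genes (black line), with dashed and dotted lines at the medians. The ribosomal protein genes form a narrow group with a median of 0.53, inside the much wider range of all genes, whose median is 0.03.

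The replicates differed from each other over these genes almost as a block. Activated replicate 1 was above activated replicate 2 in 74 of 83 genes, with a median log2 difference of 0.41, against -0.05 over all tested genes. Resting replicate 1 was below resting replicate 2 in 74 of 83, with a median of -0.40, against -0.06 over all tested genes. The size of the comparison therefore varied with the samples that were paired. The median log2 difference was 0.86 between activated 1 and resting 1, where 82 of 83 genes were positive. It was 0.52 between activated 1 and resting 2 and 0.51 between activated 2 and resting 1. Between activated 2 and resting 2 it was 0.12, with 54 of 83 positive. The gap between replicates of a group was thus close to the gap between the groups, and resting replicate 2 was also the sample with the highest sums of erythroid, myeloid and T and NK cell markers. In spite of these shifts the order of the 77 core genes by level was much the same in all samples: Pearson's r of their log2 values was 0.984 between activated replicates, 0.987 between resting replicates and 0.940 to 0.977 between the groups, a description across genes.

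**Figure D3:**
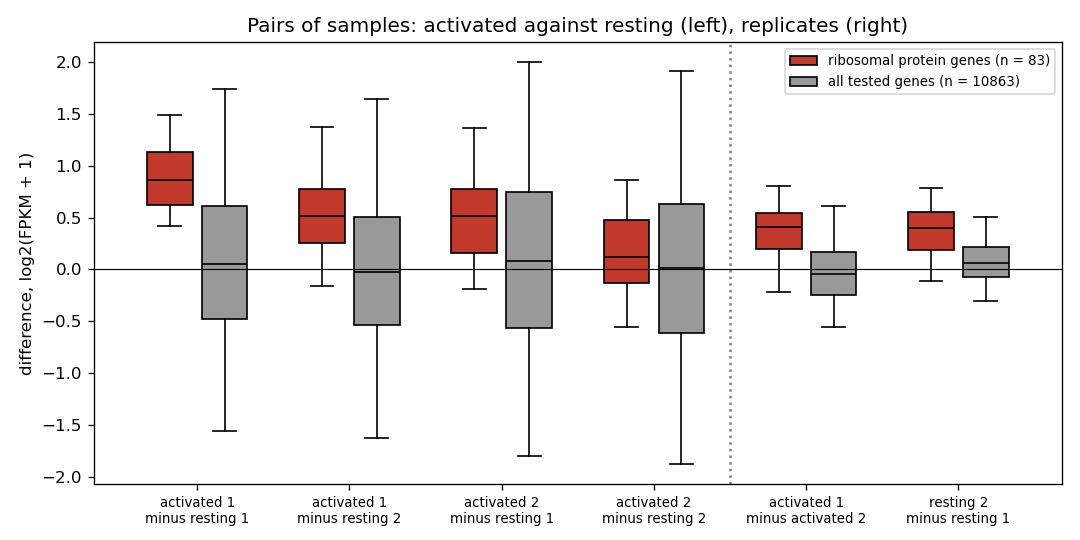
Difference between samples on the log2(FPKM + 1) scale for 83 ribosomal protein genes (red) and all 10863 tested genes (grey), for the 4 pairs of an activated and a resting sample (left of the dotted line) and the 2 pairs of replicates (right). Boxes span the quartiles with a line at the median and whiskers reach the 5th and 95th percentiles. The red median is 0.41 between activated replicates and 0.40 between resting replicates, against 0.12 between activated 2 and resting 2.

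As a share of all FPKM, the 86 genes took 7.94% and 6.16% in activated samples, against 4.79% and 5.56% in resting samples. Both activated shares were above both resting shares, and the mean was 7.05% ± 1.26 in activated and 5.17% ± 0.54 in resting samples (SD, n = 2 each), a ratio of 1.36. With 2 against 2 samples the smallest two-sided exact permutation p is 0.333. When the 10 highest rows of each sample and all small nucleolar RNA and haemoglobin rows were left out, the shares were 6.81% and 5.57% in activated and 5.33% and 6.43% in resting samples, so that the groups overlapped. In the activated samples 3 and 2 of those 10 rows were ribosomal protein genes, and in the resting samples none was. When only rows of other genes were removed, the shares were 8.54% and 6.49% in activated and 5.33% and 6.43% in resting samples, without overlap.

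The level of the tested ribosomal protein genes, as the mean of the 4 samples, had a median of 93.9 FPKM, against 10.8 FPKM over all tested genes. The median core gene of the large subunit was at 91.1 and 73.6 FPKM in activated and 49.5 and 68.3 FPKM in resting samples, and that of the small subunit at 188.8 and 135.8 FPKM in activated and 108.5 and 148.1 FPKM in resting samples. The proteins are needed in near equal numbers, but the values spread widely. Rpl8, which reaches towards the peptidyl transferase centre, was among the highest by mean, with 1583 and 1291 FPKM in activated and 853.7 and 935.7 FPKM in resting samples, without overlap but also without a call (log2 difference 0.68, SE 0.27; limma adjusted p = 0.0677). Rpl4, another protein of that region that also lines the exit tunnel, rose to 1607 and 1156 FPKM in activated samples, against 705.8 and 794.8 FPKM in resting samples (log2 difference 0.86, SE 0.28; limma adjusted p = 0.0385). Its call was lost without activated replicate 1, resting replicate 1 or resting replicate 2, where the log2 difference was 0.63 to 0.95 and the limma adjusted p 0.112 to 0.198. It was also lost with no filter (limma adjusted p = 0.0662) and after scaling to the median (0.0532) or the upper quartile (0.0802). Rps9 had 1244 and 957.9 FPKM in activated and 695.4 and 873.6 FPKM in resting samples, and was not called (limma adjusted p = 0.181). Rps15, a protein near the decoding centre, had 879.1 and 645.4 FPKM in activated and 604.4 and 939.4 FPKM in resting samples, a log2 difference of -0.0006 with a 95% interval of -0.76 to 0.76.

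Core genes with more named pseudogenes had lower listed levels. Ribosomal protein mRNAs have been copied back into the genome many times, and a read that matches both a gene and its copies may be dropped or split, depending on the counting, which is not given in the sources used here. RefSeq names 319 pseudogenes after these genes, at most 24 for 1 gene (Rpl31). Only pseudogene symbols built on the symbol of the gene were counted, so copies under other symbols are missed. The median of the mean level was 396.3 FPKM for the 15 core genes with no named pseudogene, 139.1 FPKM for the 38 with 1 to 4, and 36.6 FPKM for the 24 with 5 or more. Spearman's rho of level and number was -0.686 over the 77 core genes, a description across genes. Differences in level between ribosomal protein genes are therefore uncertain. In the comparison of activated with resting cells, 3 of 15, 9 of 38 and 8 of 24 core genes in these 3 classes were called higher. The share over all tested genes was 28.2%. Median log2 differences of the classes were 0.52, 0.45 and 0.59, and the difference between the classes was not tested.

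Of the 46 core genes of the large subunit 14 were called higher, with a median log2 difference of 0.56 and a range of -0.20 to 3.63. Of the 31 of the small subunit 6 were called, with a median of 0.42 and a range of -0.32 to 1.55. Over all tested genes 28.2% were called higher, with a median of 0.03. The difference between the subunits was not tested.

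The 8 largest rises among called genes were Rpl26, Rps27l, Rps2, Rplp0, Rpl28, Rpl22l1, Rpl14 and Rpl36al. Rps2, at mm9 chr17:24857007-24858872, encodes a small subunit protein at the mRNA entry channel. It had 61.7 and 65.2 FPKM in activated samples, against 20.8 and 21.1 FPKM in resting samples. The replicates were close together and the groups far apart, a log2 difference of 1.55 (SE 0.16; limma adjusted p = 0.000438), or 2.93-fold on the scale of FPKM + 1. RefSeq names 12 Rps2 pseudogenes, so that its level is uncertain. Rpl28, a large subunit protein, had 106.8 and 71.9 FPKM in activated samples, against 43.0 and 39.9 FPKM in resting samples (log2 difference 1.06, SE 0.23; limma adjusted p = 0.00892), and was not called without resting replicate 2 (1.01; limma adjusted p = 0.0566). Rpl14, also of the large subunit, had 316.1 and 307.0 FPKM in activated samples, against 127.0 and 177.0 FPKM in resting samples (log2 difference 1.05, SE 0.24; limma adjusted p = 0.0113), and was not called without resting replicate 1 (0.81; limma adjusted p = 0.116). The other 16 called genes, with Rps26, Rpl24, Rpl3, Rpl10, Rpl7a, Rpl31, Rpl4, Rpl10a, Rps6, Rpl27, Rpl29, Rps13, Rps28, Rpl27a and Rps19bp1 among them, had folds of 1.52 to 2.0 on the scale of FPKM + 1 and no overlap between the groups. Rps26, a small subunit protein at the mRNA exit channel, had 631.8 and 554.8 FPKM in activated samples, against 224.6 and 387.9 FPKM in resting samples. Rplp0, Rps2 and Rps27l were the only genes called higher under all 14 alternative settings, among them leaving out each sample and 4 other scalings.

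The upstream sequence is shown for 2 of these 3 genes, Rps27l and Rps2. For Rplp0 the 150 bases before the annotated start hold no match to the 4 motifs named below and are not printed. The 150 bases before the annotated start are given, 5′ to 3′ on the plus strand of GRCm38.p6, for Rps27l (chr9:66945936-66946085) and Rps2 (chr17:24719913-24720062), with matches on either strand to the 4 motifs named below in capitals.
Rps27l: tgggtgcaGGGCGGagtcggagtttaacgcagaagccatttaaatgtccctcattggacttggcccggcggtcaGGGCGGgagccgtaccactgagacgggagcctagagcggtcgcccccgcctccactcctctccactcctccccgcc
Rps2: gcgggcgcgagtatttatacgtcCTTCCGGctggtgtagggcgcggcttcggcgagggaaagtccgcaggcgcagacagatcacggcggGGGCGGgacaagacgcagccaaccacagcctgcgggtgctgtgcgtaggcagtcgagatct
Over the 300 bases from 250 before to 50 after each start, 4 short motifs were counted on both strands. CCGGAAG, the core of sites for ETS factors, was in 40% of the 65 genes, against 22.3% of tested genes and 9.93% of all genes of the promoter table. CGCCAT, the core of YY1 sites, was in 32.3%, against 19.1% and 10.2%. GGGCGG, the SP1 box, was in 63.1%, against 69.2% and 38.2%. CACGTG, the E-box to which MYC binds, was in 9.23%, against 12.4% and 8.09%. A match is a stretch of letters and not a bound site. Of the core genes with a pyrimidine tract at the start 3 of 13 were called higher, with a median log2 difference of 0.42. Those without it gave 14 of 44, with a median of 0.52, and all tested genes 28.2%.

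Rpl26 had the largest fitted difference, which does not describe its locus. The Rpl26 row had 6.72 and 19.0 FPKM in activated samples, against 0.00035 and 0.00038 FPKM in resting samples (limma adjusted p = 0.00137). A second row, Gm15772, covers nearly the same bases (mm9 chr11:68715090-68718036) and had 378.1 and 198.4 FPKM in activated samples, against 218.1 and 285.6 FPKM in resting samples. The 2 rows together had 384.9 and 217.3 FPKM in activated and 218.1 and 285.6 FPKM in resting samples, which overlap. Fitted as 1 gene they gave a log2 difference of 0.21 (SE 0.33; limma adjusted p = 0.603). Rps27 was split in the same way with the row Gm9846. The Rps27 row had 9.77 and 6.92 FPKM in activated and 8.82 and 11.3 FPKM in resting samples, and the 2 rows together had 80.6 and 48.2 FPKM in activated and 94.9 and 109.6 FPKM in resting samples. This sum was lower in both activated samples but was not called (log2 difference -0.70, SE 0.27; limma adjusted p = 0.0679). In all, 34 of the 86 genes had another row overlapping them. For 23 these included small nucleolar RNAs, many of which lie in introns of ribosomal protein genes, and 18 of those 33 small nucleolar rows were listed at 0 in all samples.

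The acidic stalk of the large subunit recruits elongation factors. Rplp0, its anchor on the ribosome (mm9 chr5:116009475-116013738), had 818.5 and 737.5 FPKM in activated samples, against 240.0 and 338.2 FPKM in resting samples. It rose by 1.44 on the log2 scale (SE 0.27; limma adjusted p = 0.00445), with both activated samples far above both resting samples. Its partner Rplp1 had 794.5 and 944.9 FPKM in activated and 373.8 and 890.2 FPKM in resting samples. Resting replicate 2 lay between the activated values, and Rplp1 was not called (log2 difference 0.59, SE 0.42; limma adjusted p = 0.273), while without resting replicate 2 it was called at 1.21 (limma adjusted p = 0.0474). Rplp2 had 391.5 and 208.7 FPKM in activated and 186.8 and 139.1 FPKM in resting samples, without overlap and without a call (log2 difference 0.82, SE 0.34; limma adjusted p = 0.0813). Without activated replicate 2 it was called, at 1.27 (limma adjusted p = 0.0142). Rpl12, at the stalk base, had 137.3 and 75.4 FPKM in activated and 98.2 and 77.8 FPKM in resting samples and was not called (log2 difference 0.22, SE 0.31; limma adjusted p = 0.575). Whether Rplp0 differed more than the other stalk genes was not tested.

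Other parts of the ribosome gave small counts, to be read beside the 28.2% of all tested genes that were called higher. Both activated values lay above both resting values in 41.5% of all tested genes. Of the 4 proteins that reach towards the peptidyl transferase centre, Rpl3, Rpl4 and Rpl10 were called higher and Rpl8 was not, and both activated values were above both resting values for all 4. Rpl10, which joins the large subunit late in its assembly, had 42.2 and 39.1 FPKM in activated samples, against 20.8 and 21.0 FPKM in resting samples (log2 difference 0.92, SE 0.16; limma adjusted p = 0.00302). It was 1 of 4 genes that stayed called whichever sample was left out, with Rplp0, Rps2 and Rps27l. Along the mRNA channel and decoding centre 3 of 6 genes were called (Rps2, Rps26 and Rps28). Of the 7 genes listed for the exit tunnel 2 were called, Rpl31 and the uncertain Rpl26. Rpl4, which also lines the tunnel, was counted only with the peptidyl transferase centre. Rpl5 and Rpl11, which carry the 5S RNA and bind the p53 regulator MDM2 when ribosome assembly fails, were not called, with log2 differences of 0.53 and 0.46. Of 12 genes mutated in Diamond-Blackfan anaemia, a human red cell disease of ribosomal protein loss, 2 were called (Rps26 and Rpl26), with a median log2 difference of 0.42. The lowest estimate of a core gene by its own row was that of Rps21, at 201.2 and 114.5 FPKM in activated and 173.5 and 208.5 FPKM in resting samples (log2 difference -0.32, SE 0.31; limma adjusted p = 0.401). Rps27 summed with Gm9846 was lower, at -0.70, and was not called either.

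The paralogues held several of the larger differences. Rps27l (mm9 chr9:66793924-66797316) encodes a protein nearly the same as Rps27, and its human counterpart is a target of p53. It had 155.9 and 153.0 FPKM in activated samples, against 28.0 and 38.6 FPKM in resting samples. It rose by 2.20 on the log2 scale (SE 0.22; limma adjusted p = 0.000367), 4.59-fold on the scale of FPKM + 1, with the activated replicates almost equal. The ratio of Rps27l to the row of Rps27 was 16.0 and 22.1 in activated samples, against 3.17 and 3.41 in resting samples. Set against Rps27 and Gm9846 summed, the ratio was 1.93 and 3.18 in activated samples, against 0.295 and 0.353 in resting samples.

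Rpl22l1 encodes a paralogue of Rpl22, and in mouse the Rpl22 protein is known to repress it. Rpl22l1 had 248.2 and 130.0 FPKM in activated samples, against 72.4 and 101.5 FPKM in resting samples (log2 difference 1.06, SE 0.34; limma adjusted p = 0.0377). Rpl22 itself had 129.1 and 95.8 FPKM in activated and 90.5 and 124.8 FPKM in resting samples, which overlap, and was not called (limma adjusted p = 0.843). Their ratio was 1.92 and 1.36 in activated samples, against 0.80 and 0.81 in resting samples. On this per-length scale Rpl22l1 was above Rpl22 in both activated samples and below it in both resting samples. The call of Rpl22l1 was lost when activated replicate 1, resting replicate 1 or resting replicate 2 was left out, with log2 differences of 0.60 to 1.30 and a limma adjusted p of 0.0528 to 0.19. It was also lost with no filter and with upper quartile or quantile scaling.

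Rpl36al, whose protein is almost identical to Rpl36a, had 236.6 and 253.9 FPKM in activated samples, against 101.2 and 137.3 FPKM in resting samples (log2 difference 1.05, SE 0.24; limma adjusted p = 0.00973), and was not called without resting replicate 1 (0.83; limma adjusted p = 0.104). Rpl36a had 62.9 and 48.5 FPKM in activated and 29.9 and 48.1 FPKM in resting samples and was not called (limma adjusted p = 0.133). The ratio of Rpl36al to Rpl36a was 3.76 and 5.23 in activated samples, against 3.39 and 2.85 in resting samples. Rpl7l1 had 34.3 and 41.3 FPKM in activated and 24.9 and 28.5 FPKM in resting samples (limma adjusted p = 0.0553). Without activated replicate 1 it was called at 0.61 (limma adjusted p = 0.0334), and its ratio to Rpl7 overlapped between the groups. Differences in the ratios were not tested.

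**Figure D4:**
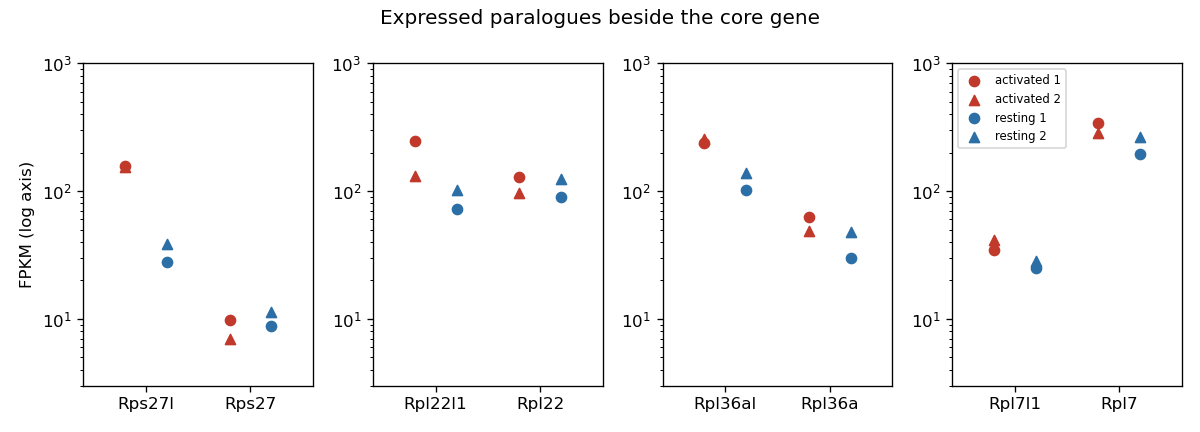
Level in FPKM on a log axis of 4 expressed paralogues, each to the left of its core gene, in activated (red) and resting (blue) samples, with circles for replicate 1 and triangles for replicate 2. Rps27l has 155.9 and 153.0 FPKM in activated and 28.0 and 38.6 FPKM in resting samples, while the Rps27 row lies between 6.92 and 11.3 FPKM.

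Of the rest of this group, Rps19bp1 encodes a nucleolar partner of Rps19 that activates the deacetylase SIRT1 and is no ribosomal protein. It had 22.9 and 26.6 FPKM in activated samples, against 15.1 and 16.8 FPKM in resting samples (log2 difference 0.60, SE 0.16; limma adjusted p = 0.018). It was not called without activated replicate 2, resting replicate 1 or resting replicate 2, with log2 differences of 0.50 to 0.68 and a limma adjusted p of 0.0518 to 0.14. Rps4y2, the row that RefSeq names Rps4l, had 3.29 and 3.99 FPKM in activated and 4.88 and 4.43 FPKM in resting samples. It was the only tested gene of the 83 whose own row had both activated values below both resting values, and it was not called (log2 difference -0.29, SE 0.17; limma adjusted p = 0.183). The other 3 genes did not pass the filter. Rpl10l, which replaces Rpl10 in male germ cells, was listed at 0 in all samples. Rpl3l, of heart and skeletal muscle, had 0.132 FPKM in activated replicate 1 and was listed at 0 in the other 3 samples. Rpl39l, of the testis, had 0.624 and 0.307 FPKM in activated and 0.448 and 0.0908 FPKM in resting samples.

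Genes that act around the ribosome were read from lists of their own. The calls below are to be read beside the 28.2% of all tested genes that were called higher and the 26.2% called lower. All 6 elongation factor genes rose, with a median log2 difference of 1.17. Eif5a, which relieves stalled ribosomes, had 327.8 and 539.0 FPKM in activated samples, against 145.9 and 156.6 FPKM in resting samples (limma adjusted p = 0.00573). Of 19 chaperones of ribosomal proteins and late assembly factors 13 rose, with a median of 0.82, led by Mrto4, Heatr3 and Pno1 with log2 differences of 1.51, 1.40 and 1.32. Of 76 mitochondrial ribosomal protein genes 52 rose and 0 fell, with a median of 0.75. Of 10 other genes with TOP mRNAs 5 rose, with a median of 0.69 and a positive estimate for 8. Npm1, a nucleolar chaperone, was at a log2 difference of 1.87 and the poly(A)-binding protein gene Pabpc1 at 1.39. Tpt1 at -0.03 and Vim at -0.57 went the other way and were not called. Vim had 81.8 and 74.4 FPKM in activated and 95.7 and 141 FPKM in resting samples. Of 14 genes of LARP1 and the mTORC1 pathway 3 rose and 1 fell. Eif4ebp1, which encodes a repressor of cap-dependent translation, had 60.4 and 70.6 FPKM in activated samples, against 9.97 and 15.4 FPKM in resting samples (limma adjusted p = 0.000378). Larp1b and Larp1 rose by 1.34 and 1.18 on the log2 scale, and Tsc2, which restrains mTORC1, fell by 0.44. Fau and Gnb2l1, which encode ribosomal proteins but whose symbols the rule does not catch, were not called. Whether any of these lists differed from the ribosomal protein genes was not tested.

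Peaks of activated cells were listed at most of these genes, as at most tested genes. A peak of H3K4me3, found at active promoters, lay within 1 kb of 75 of the 86 genes (87.2%), against 90.6% of all tested genes. An H3K27ac peak, a mark of active promoters and enhancers, lay there for 75 (87.2%), against 89.0%, and a FAIRE peak of open chromatin for 77 (89.5%), against 92.5%. The 86 genes include 3 that were not tested for RNA. Of the 77 core genes, all tested, 89.6% had an H3K4me3 peak, 89.6% an H3K27ac peak and 92.2% a FAIRE peak. STARR-seq is a reporter assay in which plasmids carry pieces of open DNA and an enhancer among them is read from its own transcripts. A STARR peak lay within 1 kb of 59 (68.6%), against 60.8% of tested genes, and all 4 kinds of peak for 58 (67.4%), against 58.7%. The widest H3K4me3 peak at a gene had a median of 2651 bases, against 1992.5 bases over tested genes, and the widest H3K27ac peak 1987 bases, against 1627. With 1 list per assay, all of activated cells, these shares have no replicate error and were not tested.

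**Figure D5:**
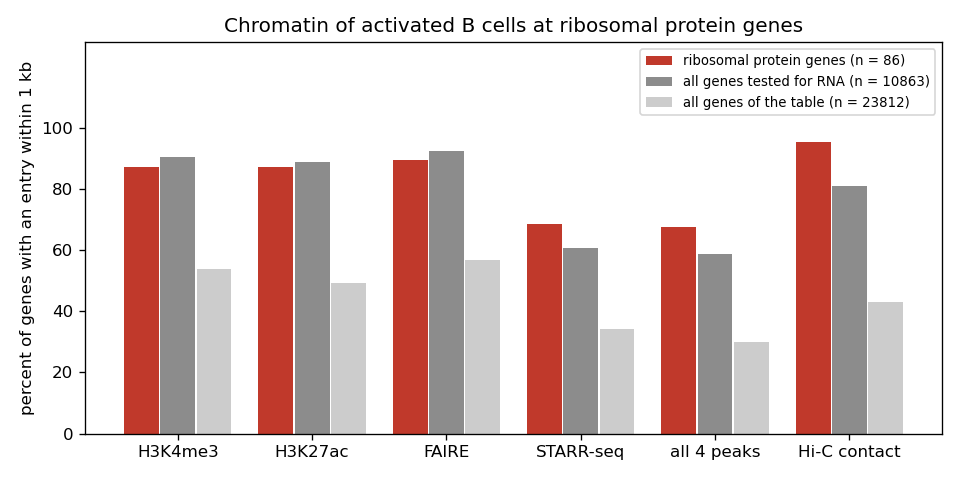
Percent of genes with a peak of each kind, with all 4 kinds, or with a Hi-C contact within 1 kb in activated B cells, for the 86 ribosomal protein genes (red), all 10863 genes tested for RNA (dark grey) and all 23812 rows (light grey). The red bars, which include 3 genes not tested for RNA, are close to the dark grey bars for H3K4me3 (87.2% against 90.6%), H3K27ac and FAIRE and above them for STARR-seq (68.6% against 60.8%) and Hi-C (95.3% against 81.0%).

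The 8 core genes with no H3K4me3 peak listed within 1 kb, with Rpl3, Rpl13a, Rpl15, Rpl41, Rps21 and Rps29 among them, had a median of the mean level of 295.9 FPKM, against 80.6 FPKM for the other 69. All 4 kinds of peak were listed within 1 kb of Rpl3l, whose RNA was listed at 0 in 3 samples. Peaks were counted over the whole locus and its flanks, so they need not lie at the promoter of Rpl3l. Whether they belong to Rpl3l or to a gene beside it was not tested. Of the 54 core genes with a STARR peak 16 were called higher, with a median log2 difference of 0.60. Among the 23 without one 4 were called, with a median of 0.39, and among all tested genes 28.2%.

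Hi-C records pairs of genome regions in contact. The authors' list of enhancer and promoter contacts had an entry within 1 kb of 82 of the 86 genes (95.3%), against 81.0% of tested genes, and the 4 without were Rpl10l, Rpl39l, Rps4y2 and Rpl39. The list holds anchors of several sizes, so a contact can be entered more than once, and an entry that touches several of these genes was counted for each. The 686 entries at these genes had a median distance of 375.5 kb and a median of 7 reads, and 10 of them joined 2 ribosomal protein genes, among them Rpl41 with Rps26, Rps2 with Rpl3l, and Rps13 with Rps15a. Several of these anchors also cover other genes, such as Msrb1 beside Rpl3l. The largest number of entries was 39, at Rps18, followed by 25 at Rpl41, 21 at Rpl24 and 20 at Rps2.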

How the data were processed

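RNA was analysed from 2 activated and 2 resting samples, grouped by the labels. Per the submitters' processing notes, Bowtie2, Bowtie, HOMER, bedtools, TopHat2, STAR and build mm9 were used, with no role or version given; the counting is not given in the sources used here. The table deposited by the authors holds 23812 rows with a locus and values that were treated as FPKM: they are not whole numbers and low values step with the gene. Depth in reads is unknown, but those steps give its ratio: 1 read was worth 1.60 times as much in activated replicate 1 as in activated replicate 2, 0.974 times as much in resting replicate 1 as in resting replicate 2, and 1.38 times as much in activated replicate 1 as in resting replicate 1. In 1 value column no sample could be matched, and it was not used. Dates had replaced the symbol in 27 rows, and 265 symbols were repeated. No strand is given.

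Rows reaching a value of 1 in 2 or more samples entered limma 3.58.1 (R 4.3.3; trend and robust), run on log2(FPKM + 1), with no block; folds on this scale understate changes of low genes. Adjustment was over all 10863 tested rows and calls are at an adjusted p under 0.05. The planned count tests did not apply to this unit. The script was tested on simulated data. The ribosomal protein genes (the members) and the lists were chosen with earlier results of these data known. Named in full were the 8 called members with the largest rise (none fell), the 5 highest, the paralogues, the stalk and the members under the filter; some genes that this rule or a list names are not reported here, and other members were chosen after their values were seen or as members of a list. Of 136 list members all were matched, 3 by another symbol.

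Peak lists deposited by the authors give mm9 intervals with no score, 1 list per assay. The deposited Hi-C list gives a read count for each contact over pooled samples. A gene was given an entry within 1 kb of its locus. Start windows, promoters and pseudogene names are RefSeq's (GRCm38.p6, names matched by symbol; coordinates of printed sequences are on that build, all other coordinates on mm9). Alternatives were other pseudocounts, filters, scalings and flanks, a replicate block and leaving out each sample.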

Additional observations from a re-analysis of the deposited data

How the results depend on the processing

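All 24 ribosomal protein genes (the members) called higher were also called with a pseudocount of 0.1 or 5. The number called higher was 13 with no filter, 4 after scaling to the median of the core members, and 6 to 32 when 1 sample was left out; it was 21 after scaling to the median, 18 with the upper quartile or quantile normalization, 20 among core members alone and 23 with the split loci summed. The number called lower was 0 throughout, except that it ranged from 0 to 1 when 1 sample was left out (Rps21 without activated replicate 1). Over all genes, 1903 were higher and 1287 lower with a mean of at least 10, 840 and 1856 after scaling to the core members, and 1735 to 2859 higher and 1191 to 2834 lower when 1 sample was left out. The median log2 difference of members was 0.20 after scaling to the core members, which moved the median of all genes to -0.30. Upper quartile scaling moved it to -0.09 and left the members at 0.39. Scaling to the core members removes the shift they share by construction. It also changed the fitted SE, from 0.16 to 0.46 for Rps2 and from 0.42 to 0.32 for Rplp1. The parts of these 2 changes in the lower counts were not told apart. Scaling to the core members and the sums of Rpl26 and Rps27 with their overlapping rows were chosen after seeing the data. The members' share of FPKM was 1.88 percentage points higher in activated cells, 0.307 without the highest rows, small nucleolar RNA and haemoglobin, and 1.63 when only rows of other genes were removed.

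Replicate numbers are shared by the groups, but nothing in the labels says that they pair samples, and the replicate differences of activated and resting samples had an r of 0.124 over all tested genes and 0.230 over the members. With a replicate block 26 members were called higher and 0 lower, 22 of them among the 24. Rpl4 (limma adjusted p = 0.0999) and Rpl22l1 (0.0531) were no longer called, and Rplp2 (0.0269) and Rpl7l1 (0.026) were. No groups of the peak or Hi-C lists allow a block. When 1 sample was left out, the log2 difference ranged from -0.21 to 0.65 for Rpl12, from -0.039 to 1.21 for Rplp1 and from -0.32 to 0.32 for Rps15, and that of Rpl12 was -0.11 after scaling to the core members. Of these values the highest of Rplp1, without resting replicate 2, was called (limma adjusted p = 0.0474), and the cause was not tested. Peak counts at flanks of 0 or 5 kb, and the contact count at a flank of 0, were within 1.5 times those at 1 kb. With 2 samples a group and an unknown read depth, the smallest difference called for a member in the main fit was 0.60 on the log2 scale. Smaller ones were called under some alternatives, such as Rps19bp1 at 0.47 with upper quartile scaling.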
